A study of Arabidopsis thaliana with 8 samples.

Results

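Mature miRNAs of 3 families, miR162, miR168 and miR403 (ath-miR162, ath-miR168 and ath-miR403 in the gene tables), were followed in endosperm in which the mother, the father or both parents carried mutant NRPD1. They were picked by name from the 427 mature miRNA entries of the gene tables, among 33860 entries in all. The name rule gave 10 entries, 4 of miR162, 4 of miR168 and 2 of miR403. Endosperm is the nutritive seed tissue that grows beside the embryo, and NRPD1 is the catalytic subunit of the plant RNA polymerase IV (Pol IV), whose transcripts become 24-nt sRNAs. All 8 libraries were small RNA (sRNA) libraries from endosperm of Ler x Col-0 F1 seed at 7 days after pollination, each from pooled seeds, with other plants as parents for each replicate. The 3 libraries of mat nrpd1+/- came from Ler nrpd1-/- mothers and Col-0 fathers. The 2 libraries of pat nrpd1+/- (replicates 2 and 3) came from Ler mothers and Col-0 nrpd1-/- fathers. In the 3 libraries of nrpd1-/-, both parents were homozygous mutant. The mutant allele is a single insertion line of Col-0 that had been crossed into Ler, so every genotype rests on it. Since sRNA libraries hold no mRNA markers, neither the endosperm label nor the NRPD1 genotype could be checked from mRNA here.

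These families act on the silencing machinery itself. miR162 guides cleavage of the mRNA of DCL1, the Dicer-like enzyme that cuts miRNAs out of their hairpins. miR168 acts on the mRNA of AGO1, the Argonaute protein that carries most miRNAs, and miR403 acts on AGO2, an Argonaute known for antiviral defence. A plant miRNA is cut from a hairpin whose 5′ arm (5p) and 3′ arm (3p) pair, and usually a single arm is kept as the guide. Canonical miRNAs made by DCL1 are about 21 nt long, whereas 24-nt sRNAs are typically made by DCL3.

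The mature sequences are shown because several entries share a sequence, which decides what a read count at each can mean. Coordinates are of TAIR10, and all 10 entries matched a RefSeq mature miRNA of the TAIR10.1 genome exactly. Capitals mark bases 2 to 8, counted from the 5′ end.
miR162a-3p (chr5:2634936-2634956, minus strand) and miR162b-3p (chr5:7740610-7740630, minus strand): uCGAUAAAccucugcauccag
miR162a-5p (chr5:2634998-2635019, minus strand) and miR162b-5p (chr5:7740675-7740696, minus strand): uGGAGGCAgcgguucaucgauc
miR168a-5p (chr4:10578652-10578672, plus strand) and miR168b-5p (chr5:18358873-18358893, minus strand): uCGCUUGGugcaggucgggaa
miR168a-3p (chr4:10578737-10578757, plus strand): cCCGCCUUgcaucaacugaau
miR168b-3p (chr5:18358803-18358823, minus strand): cCCGUCUUguaucaacugaau
miR403-3p (chr2:19415154-19415174, plus strand): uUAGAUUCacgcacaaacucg
miR403-5p (chr2:19415077-19415098, plus strand): uGUUUUGUgcuugaaucuaauu

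Each entry lies in a noncoding MIR gene. Those genes are MIR162a (AT5G08185), MIR162b (AT5G23065), MIR168a (AT4G19395), MIR168b (AT5G45307) and MIR403 (AT2G47275). No entry overlapped another mature entry. Both miR162 arms and miR168-5p were identical between the a and b copies, so that reads of the bare mature sequence cannot be assigned to a locus. The MIR168 hairpins are given from RefSeq, since 24-nt reads separated the 2 loci below. Capitals mark the 5p and the 3p arm.
MIR168a (chr4:10578635-10578772, plus strand): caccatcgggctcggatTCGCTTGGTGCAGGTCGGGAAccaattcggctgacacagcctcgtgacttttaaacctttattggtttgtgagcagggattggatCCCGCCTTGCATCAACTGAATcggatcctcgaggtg
MIR168b (chr5:18358788-18358911, minus strand): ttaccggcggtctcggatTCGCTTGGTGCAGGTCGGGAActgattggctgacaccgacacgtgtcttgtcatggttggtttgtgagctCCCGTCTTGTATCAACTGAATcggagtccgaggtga

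In these hairpins all 3 bases before the shared 5p sequence were the same, and 1 of the 3 bases after it was the same. A 24-nt read that runs past the 3′ end of the mature sequence can therefore belong to a single locus, whereas a 21-nt read of the mature sequence cannot.

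The best ungapped match to each guide in the target's transcripts is shown 5′ to 3′, with Watson-Crick pairs in capitals.
DCL1 (chr1:27522-27623, plus strand): CUGGAUGCAGAGGUUguauuA
AGO1 (chr1:17891529-17891549, minus strand): UUCCCGAgCUGCAuCAAGCuA
AGO2 (chr1:11185223-11185243, plus strand): gGAGUUUGUGCGUGAAUCUAA

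The DCL1 match lay in the coding sequence and spanned an intron of 81 bases, with 16 Watson-Crick pairs, 1 G:U pair and 4 mismatches to miR162. The AGO1 match, also coding, had 18 Watson-Crick pairs, 1 G:U pair and 2 mismatches to miR168-5p. The AGO2 match lay in the 3′ UTR and had 20 Watson-Crick pairs and 1 mismatch to miR403-3p.

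Levels below are reads scaled to 1000000 mature miRNA reads of the same size class and library (rpm). At 21 nt this total ran from 475388 to 751149 reads, and at 24 nt from 13118 to 38607 reads. A count of 3 reads thus stood for 3.99 to 6.31 rpm at 21 nt and for 77.7 to 229 rpm at 24 nt, and 24-nt values under about that level carry little information. The 2 pat nrpd1+/- libraries differed more from each other than any pair of mat nrpd1+/- libraries. The chi-square of their counts over entries, divided by its degrees of freedom, was 40.8 at 21 nt against 5.11 to 8.78. At 24 nt it was 15.3, against 2.25 to 4.29 for mat nrpd1+/- pairs and 13.0 to 27.2 for nrpd1-/- pairs. This measure also rises with the number of reads, and pat replicate 2 had the most.

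At 21 nt the 3 families made up a similar part of the miRNA pool in both heterozygotes. Their share of mature miRNA reads was 9.69% ± 0.823 (SD, n = 3) in mat nrpd1+/-, against 9.43% ± 1.90 (SD, n = 2) in pat nrpd1+/-. The guide strands miR168a-5p, miR403-3p and miR162a-3p ranked 8, 12 and 21 of 427 entries in mat nrpd1+/-, and 8, 12 and 23 in pat nrpd1+/-. No member was called in mat against pat nrpd1+/-, where a call needed at least a 2-fold change and an adjusted p no higher than 0.05 in edgeR's quasi-likelihood test. All 10 were tested, 1 had an unadjusted p under 0.05 (miR403-5p), and DESeq2 called 0. In the same comparison 13.4% of all entries tested and 10.6% of mature miRNA entries were called. Over all entries 88 were called higher and 361 lower in mat nrpd1+/-, and 136 and 320 with DESeq2 size factors, which shifted log2 fold changes by 0.15. The members' median log2 fold change was -0.05, as it was over all entries tested (-0.05). In such whole-tissue libraries, fewer cells of a type and less RNA per cell cannot be told apart.

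**Figure D1:**
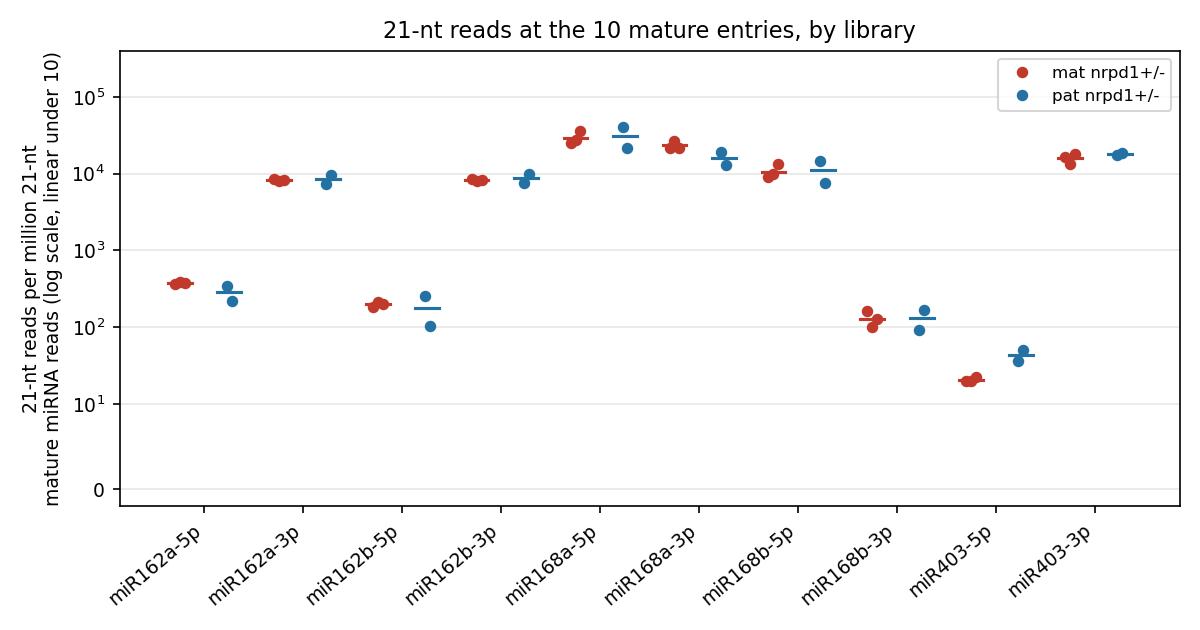
21-nt reads in rpm (log axis, linear under 10) at the 10 entries, with a point for each library and a bar for the mean, in mat nrpd1+/- (red, n = 3) and pat nrpd1+/- (blue, n = 2). At miR162a-5p, miR168a-3p and miR403-5p the heterozygotes do not overlap, though none of the 10 entries was called. How many of all entries separate in this way was not counted.

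miR162-3p, the strand that guides DCL1 cleavage, had close means at 21 nt. miR162a-3p stood at 8564, 8022 and 8279 rpm in the mat nrpd1+/- libraries and at 7414 and 9601 rpm in the pat nrpd1+/- libraries. The pat libraries lay on either side of all 3 mat libraries (log2 fold change -0.04, SE 0.258, adjusted p = 0.952, edgeR). Its identical copy miR162b-3p had 8283 rpm ± 166 (SD, n = 3) and 8741 rpm ± 1664 (SD, n = 2). The passenger strand miR162a-5p had 375 rpm ± 12.5 and 285 rpm ± 88.0. Reads of miR162a-3p outnumbered it 22.1-fold ± 1.47 in mat nrpd1+/-, 32.2-fold ± 15.4 in pat nrpd1+/- and 11.6-fold ± 0.794 in nrpd1-/-. The annotated 5p strands of miR162 and miR403 are 22 nt long, however, so that 21-nt counts leave out their full-length form.

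miR168-5p, the guide strand against AGO1, differed more between libraries of a genotype than between genotypes. miR168a-5p stood at 24962, 27899 and 35957 rpm in mat nrpd1+/-, and at 40580 and 21677 rpm in pat nrpd1+/-. The highest and the lowest library were thus both pat nrpd1+/- (log2 fold change -0.07, SE 0.277, adjusted p = 0.904, edgeR). Its star strand, miR168a-3p, was also abundant, at 21621, 26996 and 21690 rpm in mat nrpd1+/- and 19272 and 13023 rpm in pat nrpd1+/-. The guide outnumbered it 1.15-, 1.03- and 1.66-fold in the mat libraries and 2.11- and 1.66-fold in the pat libraries. For miR168a-3p all 3 mat libraries lay above both pat libraries, but the difference did not pass the test (log2 fold change 0.54, SE 0.259, adjusted p = 0.210, edgeR). The star strand of the other locus, miR168b-3p, was far scarcer, at 130 rpm ± 30.4 and 131 rpm ± 53.1.

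miR403-3p, which pairs with AGO2, was at 16570, 13338 and 17820 rpm in mat nrpd1+/- and 17345 and 18547 rpm in pat nrpd1+/-, with overlapping groups (log2 fold change -0.17, SE 0.246, adjusted p = 0.716, edgeR). Its 22-nt passenger strand miR403-5p had few 21-nt reads, with 10, 10 and 11 in mat nrpd1+/- and 27 and 24 reads in pat nrpd1+/-. In rpm these were 20.2, 20.2 and 22.2 against 35.9 and 50.5, higher in both pat libraries, and the difference was not called (log2 fold change -1.02, SE 0.412, adjusted p = 0.124, edgeR).

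At 24 nt the picture was a different one, since nearly all reads of these families were counted at the MIR168a locus. In mat nrpd1+/- miR168 held 10.9% ± 2.34 of 24-nt mature miRNA reads, miR162 held 0.217% ± 0.0636 and miR403 held 0.0327% ± 0.00765 (SD, n = 3). In pat nrpd1+/- they held 9.96% ± 2.26, 0.242% ± 0.0784 and 0.0206% ± 0.00753 (SD, n = 2). In nrpd1-/- they held 18.8% ± 1.75, 0.282% ± 0.0297 and 0.0501% ± 0.00805 (SD, n = 3). miR168a-3p ranked 2 of 427 entries in mat nrpd1+/-, 4 in pat nrpd1+/- and 2 in nrpd1-/-, whereas miR403-3p ranked 194, 212 and 115.

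**Figure D2:**
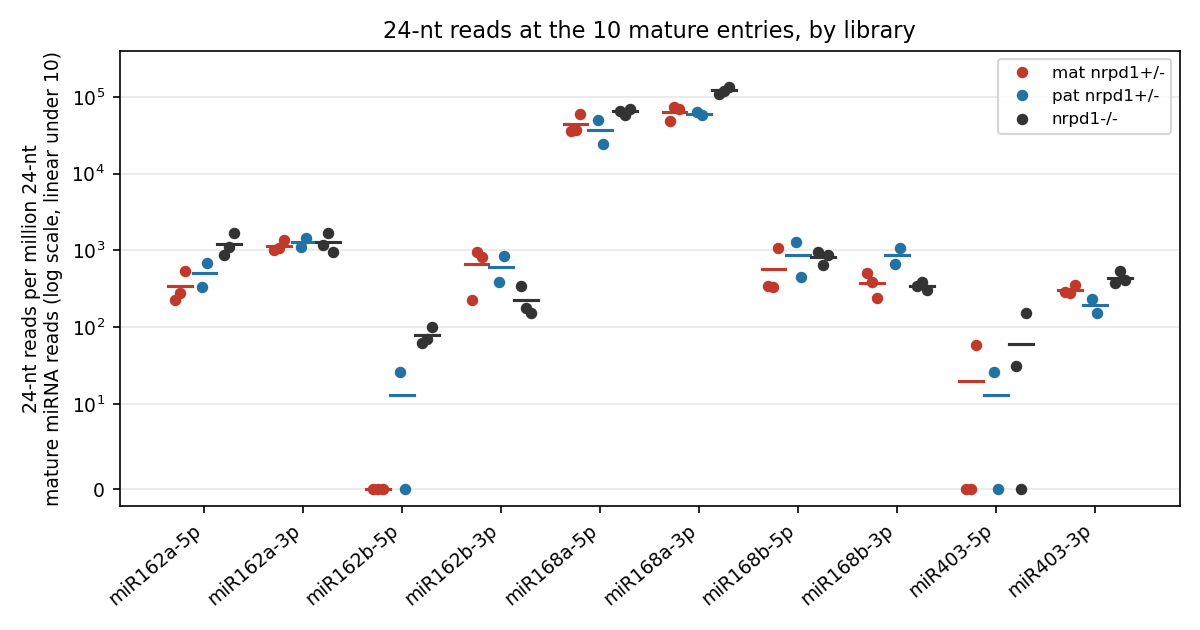
24-nt reads in rpm (log axis, linear under 10) at the 10 entries, with a point for each library and a bar for the mean, in mat nrpd1+/- (red, n = 3), pat nrpd1+/- (blue, n = 2) and nrpd1-/- (black, n = 3). Both miR168a arms lie at 24699 or more in every library and the other 8 entries at 1709 or less.

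Between the reciprocal heterozygotes no member was called at 24 nt. edgeR called 0 of the 6 members with enough reads, against 10.8% of all entries and 16% of mature miRNA entries tested. Of the 6, 1 had an unadjusted p under 0.05 (miR168b-3p), and DESeq2 called 0. The members' median log2 fold change of mat over pat nrpd1+/- was -0.02, against 0.21 over all entries. Over all entries 491 were called higher and 381 lower in mat nrpd1+/-, and 214 and 599 with TMM factors over mature miRNA entries, which shifted log2 fold changes by -0.38. miR168b-3p had 9, 7 and 4 reads in mat nrpd1+/- and 26 and 14 in pat nrpd1+/- (381 rpm ± 138 and 870 rpm ± 278; log2 fold change -1.06, SE 0.471, adjusted p = 0.150, edgeR). With those factors it was called (-1.44, adjusted p = 0.0328), and without pat replicate 3 miR168b-5p was called (-1.16, adjusted p = 0.0357). Both miR168a arms overlapped between the heterozygotes.

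Most of the 24-nt entries called were lower in nrpd1-/- under each scaling run, so the comparison with nrpd1-/- rests on what the reads are scaled to. Of all entries tested, 88.1% were called lower and 1.31% higher in nrpd1-/- than in mat nrpd1+/-, and of mature miRNA entries 42.5% were called lower and 10.6% higher. Against pat nrpd1+/- 88.9% of all entries were called lower and 0.833% higher, and of mature miRNA entries 37.4% and 12.8%. With TMM factors over all entries the split against mat nrpd1+/- went from 4913 lower and 73 higher to 3231 lower and 1063 higher, and against pat nrpd1+/- from 8218 lower and 77 higher to 2328 lower and 896 higher. The total mature miRNA reads are themselves touched by this. Outside the 3 families, 76 mature entries were called lower against either heterozygote. In mat nrpd1+/- their part of the 24-nt mature miRNA reads was 27.9% to 38.9%. It was 17.1% to 26.4% in the pat nrpd1+/- libraries, and at most 2.22% where both parents were mutant.

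miR168a-3p stood at 48069, 74782 and 68763 rpm in mat nrpd1+/-, at 63978 and 57402 rpm in pat nrpd1+/-, and at 108970, 119388 and 136218 rpm in nrpd1-/-. Every nrpd1-/- library lay above every heterozygote. The fold change was under the 2-fold that a call needs against mat nrpd1+/- (log2 fold change 0.93, SE 0.224, adjusted p = 4.38e-05, edgeR). There edgeR called it with TMM factors over mature entries (1.02, adjusted p = 3.31e-05) and without the 3 families in the total (1.06, adjusted p = 1.21e-05). DESeq2's own test and mature entries alone in the fit gave 0.93, without a call. Against pat nrpd1+/- miR168a-3p missed the p threshold (log2 fold change 1.001, SE 0.705, adjusted p = 0.169, edgeR), but was called with mature miRNA entries alone in the fit (adjusted p = 0.0148). With the 76 entries left out of the total, a scaling chosen after the data were seen, it was 0.37 against mat (adjusted p = 0.191) and 0.67 against pat (adjusted p = 0.374).

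miR168a-5p stood at 35497, 37222 and 60694 rpm in mat nrpd1+/-, 49602 and 24699 rpm in pat nrpd1+/-, and 66276, 58643 and 70705 rpm in nrpd1-/-. The nrpd1-/- libraries overlapped the highest mat library and lay above both pat libraries. Its log2 fold change was 0.55 against mat (SE 0.231, adjusted p = 0.0191, edgeR) and 0.81 against pat (SE 0.644, adjusted p = 0.225, edgeR), neither called. With the 76 entries left out of the total it was 0.01 against mat nrpd1+/- (adjusted p = 0.987) and 0.51 against pat nrpd1+/- (adjusted p = 0.471). Since the 76 entries were chosen for being lower in nrpd1-/-, leaving them out lowers the fold change of nrpd1-/- at every other entry by construction, and the value says only how far the result depends on the total.

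In nrpd1-/- against mat nrpd1+/-, 1.31% of all entries and 10.6% of mature miRNA entries were called higher. miR162a-5p, the passenger strand of the MIR162a hairpin, was the only member called in that comparison, of 5 tested (DESeq2 also called 1). It had 4, 5 and 9 reads in the mat nrpd1+/- libraries, 13 and 9 in pat nrpd1+/-, and 28, 31 and 33 in nrpd1-/-. In rpm it was 348 ± 164 (SD, n = 3), 511 ± 247 (SD, n = 2) and 1222 ± 412 (SD, n = 3), and every nrpd1-/- library lay above every heterozygote. It passed the count filter only through the nrpd1-/- libraries, where it was high, and in mat against pat nrpd1+/- it was not tested. With no filter it was called against mat (1.77, adjusted p = 0.00079, edgeR) and against pat nrpd1+/- (1.37, adjusted p = 0.0293, edgeR). It rose against mat nrpd1+/- (log2 fold change 1.77, SE 0.447, adjusted p = 9.64e-05, edgeR) and against pat nrpd1+/- (log2 fold change 1.37, SE 0.578, adjusted p = 0.0204, edgeR). With the 76 entries left out of the total, the first call held (1.22, adjusted p = 0.0131) and the second did not (1.04, adjusted p = 0.103). The call against pat nrpd1+/- was also lost in DESeq2 (adjusted p = 0.154), with mature miRNA entries alone in the fit (1.35, adjusted p = 0.0605), without pat replicate 2 (0.80, adjusted p = 0.315) and without nrpd1-/- replicate 3 (1.10, adjusted p = 0.0698). Because miR162b-5p has the same sequence, the copies were also summed, and the sum gave 1.86 against mat (adjusted p = 3.97e-05) and 1.41 against pat (adjusted p = 0.0165).

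Against pat nrpd1+/- edgeR called 3 of 8 members tested, 1 higher and 2 lower, while DESeq2 called 0. Over all entries 0.833% were called higher and 88.9% lower, and of mature miRNA entries 12.8% and 37.4%. Since most entries were called lower in nrpd1-/-, the adjustment over all entries raised the p-values of members little. Unadjusted p was 0.0180 for miR162a-5p, 0.0429 for miR162b-3p and 0.0283 for miR168b-3p (edgeR). For miR162a-5p against mat nrpd1+/- it was 8.47e-05 (edgeR). The lower pair were entries of few reads, which passed the count filter through the pat nrpd1+/- libraries, where they were higher. With no filter miR168b-3p was still called (adjusted p = 0.0383, edgeR). miR162b-3p had 15 and 11 reads in pat nrpd1+/- and 11, 5 and 3 in nrpd1-/- (log2 fold change -1.17, SE 0.576, adjusted p = 0.0478, edgeR). miR168b-3p had 26 and 14 reads in pat nrpd1+/- and 11, 11 and 6 in nrpd1-/- (log2 fold change -1.22, SE 0.555, adjusted p = 0.0317, edgeR). Leaving out pat replicate 3 ended both calls (-0.72, adjusted p = 0.390; -0.93, adjusted p = 0.168), as did leaving out nrpd1-/- replicate 3 (-0.99, adjusted p = 0.104; -1.15, adjusted p = 0.0589). That of miR168b-3p was also lost without nrpd1-/- replicate 1 (-1.20, adjusted p = 0.0526), without the 3 families in the total (adjusted p = 0.0550), with mature entries alone in the fit (adjusted p = 0.0788) and with a replicate block (adjusted p = 0.0642). With TMM or DESeq2 size factors over all entries miR168b-3p was called higher instead (1.04, adjusted p = 0.0418, and 1.07, adjusted p = 0.0458). The call of miR162b-3p was lost with TMM over mature entries (adjusted p = 0.0711), without the families (adjusted p = 0.0748), with no filter (adjusted p = 0.0617) and with mature entries alone (adjusted p = 0.117). Without nrpd1-/- replicate 1 or 2 miR162b-3p had too few reads to be tested. The guide strand miR162a-3p, identical to miR162b-3p, had 1152 rpm ± 185, 1281 rpm ± 237 and 1291 rpm ± 380 in mat, pat and nrpd1-/-, with overlapping groups. The sum of these identical copies was not called against pat nrpd1+/- (-0.28, adjusted p = 0.602, edgeR).

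**Figure D3:**
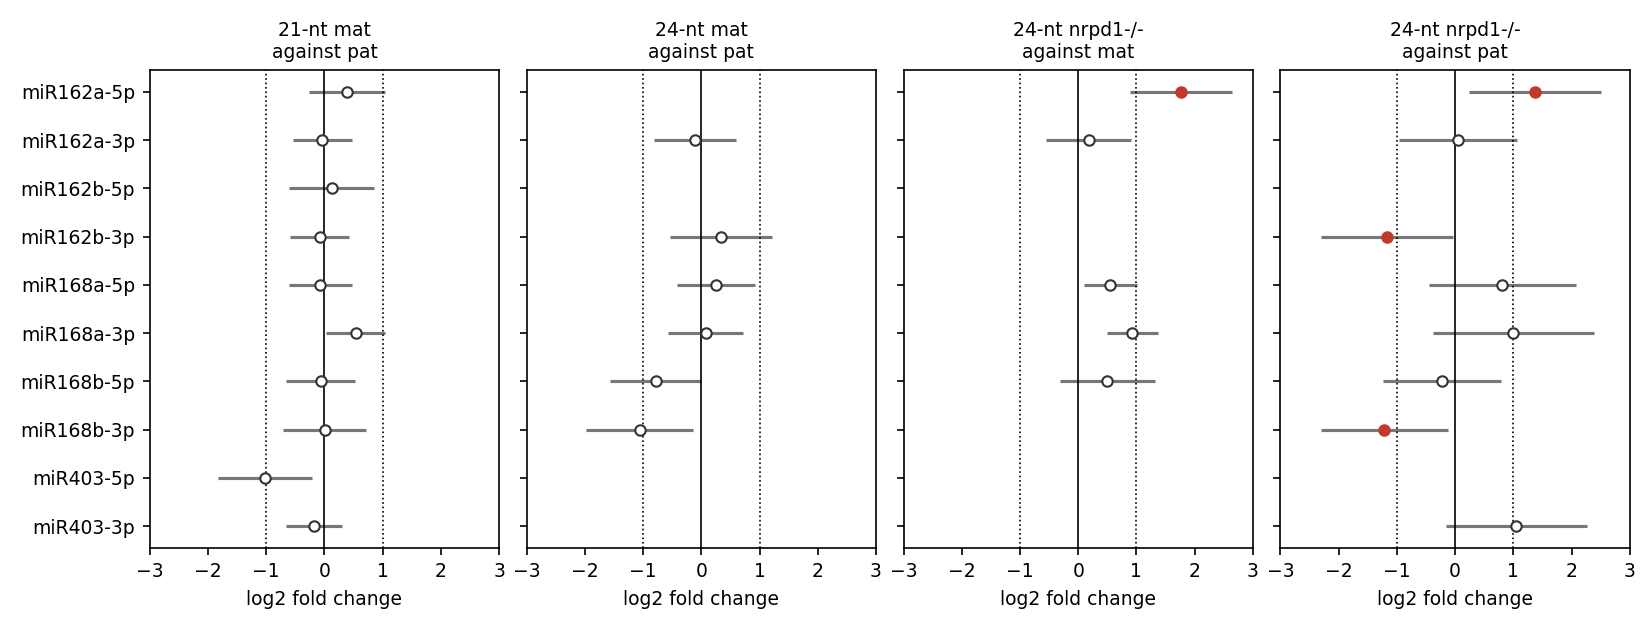
log2 fold change (first genotype over second) with its 95% interval for each member tested in the 4 comparisons, from fits scaled to total mature miRNA reads. Filled red points were called, dotted lines mark 2-fold, and no point is drawn where an entry had too few reads. The calls are miR162a-5p at 1.77 and 1.37 and, against pat nrpd1+/- alone, miR162b-3p at -1.17 and miR168b-3p at -1.22.

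Against mat nrpd1+/- the count of members called moved from 1 to 2 or 3 whichever library was left out. miR162b-3p, too rare for the test on all 6 libraries, then became testable and was called lower without nrpd1-/- replicate 1, 2 or 3 (-1.96, -1.30 and -1.31) or mat replicate 1 (-1.89), and also with no filter on low counts (-1.48, adjusted p = 0.0111). It had 4, 17 and 14 reads in mat nrpd1+/-, so that a single mat library overlapped nrpd1-/-. Summed with its identical copy miR162a-3p over all 6 libraries, it was not called (-0.25, adjusted p = 0.484, edgeR). miR168a-3p was called without nrpd1-/- replicate 1 (adjusted p = 1.92e-05) or mat replicate 2 (adjusted p = 0.00113), and miR168b-5p without mat replicate 3 (1.25).

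The other 24-nt members were close to the counting floor. miR403-3p had 5, 5 and 6 reads in the mat nrpd1+/- libraries, 9 and 2 in pat nrpd1+/-, and 12, 15 and 8 in nrpd1-/-, and was not called against pat nrpd1+/- (log2 fold change 1.05, SE 0.617, adjusted p = 0.0968, edgeR). miR162b-5p had 0 reads in the mat nrpd1+/- libraries, 1 and 0 in pat nrpd1+/- and 2 in each nrpd1-/- library. miR403-5p had at most 3 reads in any library. Neither of these 2 entries was tested at 24 nt.

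TMM factors over all entries shifted log2 fold changes of nrpd1-/- by a median of 2.22 against mat and 2.25 against pat nrpd1+/-, relative to mature miRNA scaling. Under them 7 members were called in each comparison, all higher in nrpd1-/-, with miR168a-5p at 2.80 and 3.07 and miR168a-3p at 3.18 and 3.26. Over all entries these factors called 1063 of 4630 tested higher and 3231 lower against mat nrpd1+/-. Against pat nrpd1+/- they called 896 of 3367 higher and 2328 lower.

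The ratio of 24-nt to 21-nt reads at the same entry uses counts of a single library, but it still carries any difference between libraries in the size profile as a whole. Over all mature miRNA entries there were 3.40 to 3.58 24-nt reads per 100 21-nt reads in mat nrpd1+/-, and 5.14 and 2.76 in pat replicates 2 and 3. In nrpd1-/- it could be formed for the 8 members listed in the usable part of its 21-nt table, which holds 2099 entries, 169 of them mature miRNAs. At miR168a-3p there were 7.88, 9.93 and 10.8 24-nt reads per 100 21-nt reads in the mat nrpd1+/- libraries, 17.1 and 12.2 in pat nrpd1+/-, and 28.0, 24.8 and 20.3 in nrpd1-/-. The 3 genotypes did not overlap, in the order mat, pat, nrpd1-/-. The mean of nrpd1-/- was 2.56-fold that of mat and 1.67-fold that of pat nrpd1+/-. At miR168a-5p the ratio was 5.04, 4.78 and 5.73 in the mat nrpd1+/- libraries, 6.28 and 3.14 in pat nrpd1+/-, and 8.51, 7.93 and 7.21 in nrpd1-/-, above every heterozygote by 1.52-fold and 1.67-fold in the mean. The high and the low pat library were those with the high and the low ratio over all miRNAs. With 3 libraries against 3 an exact two-sided permutation test cannot go below p = 0.1, so that no difference can pass 0.05 here.

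The ratio was also formed at other miRNAs. Of the 161 other mature entries listed, 53 had at least 20 24-nt reads in every genotype, a filter that leaves out miRNAs that lost their 24-nt reads in nrpd1-/-. Of these 53, 36 had a higher ratio in nrpd1-/- than in mat nrpd1+/-, with a median of 1.27-fold, and 8 reached the 2.56-fold of miR168a-3p. For the 1.52-fold of miR168a-5p, 17 of 53 reached it. Against pat nrpd1+/- 36 of the 53 were higher in nrpd1-/-, with a median of 1.33-fold. There 16 reached the 1.67-fold of miR168a-3p, and 16 reached the 1.67-fold of miR168a-5p.

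The guide strands of the other families had almost no 24-nt form. miR162a-3p had 0.487 ± 0.0685 24-nt reads per 100 21-nt reads in mat nrpd1+/-, 0.594 ± 0.252 in pat nrpd1+/- and 0.766 ± 0.318 in nrpd1-/-, with overlapping groups. miR403-3p had 0.0681 ± 0.00736, 0.0459 ± 0.0328 and 0.125 ± 0.0251, from 16, 11 and 35 24-nt reads in all. The passenger strand miR162a-5p, at 3.21 ± 1.38, 6.74 ± 2.48 and 7.75 ± 0.782, is 22 nt long, so its ratio to 21-nt reads cannot be set against that of its guide strand.

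**Figure D4:**
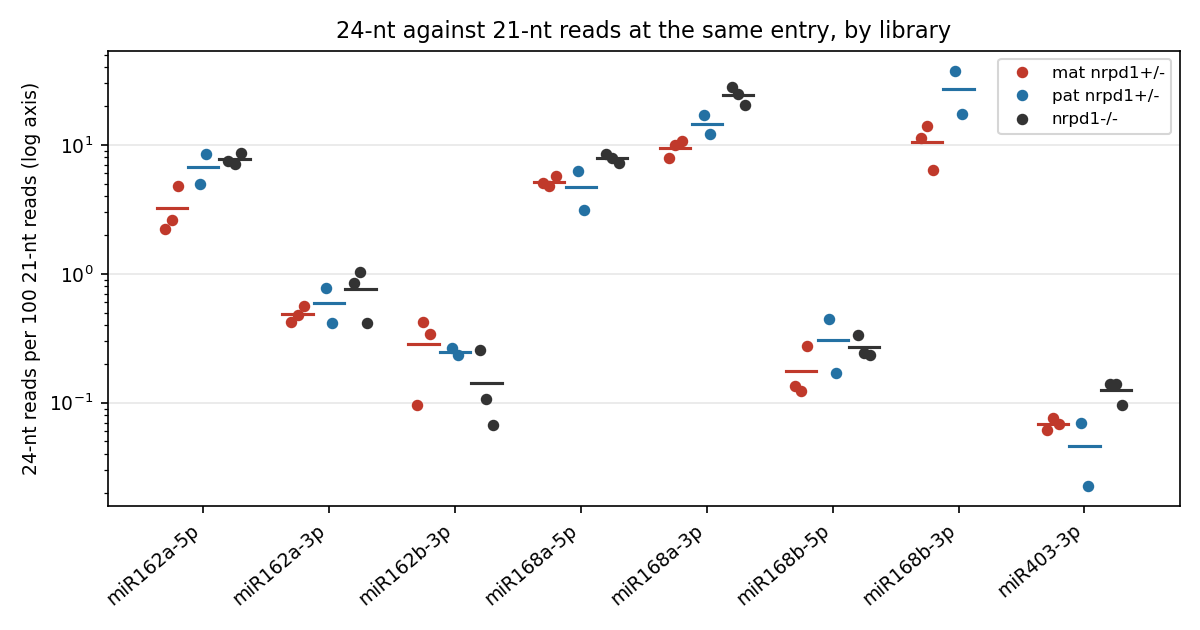
24-nt reads per 100 21-nt reads of the same entry and library (log axis) at 8 entries, with a point for each library and a bar for the mean, in mat nrpd1+/- (red), pat nrpd1+/- (blue) and nrpd1-/- (black). miR162b-5p and miR403-5p are left out. Some genotypes had under 20 24-nt reads in all at miR162a-5p (18 in mat nrpd1+/-), miR162b-3p (19 in nrpd1-/-) and miR403-3p (16 in mat and 11 in pat nrpd1+/-). miR168a-3p runs from 7.88 to 28.0, while miR403-3p stays at or below 0.140, and miR168b-3p has no nrpd1-/- values.

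The 2 copies of miR168-5p parted by read length. At 21 nt the reads at miR168a-5p outnumbered those at its identical copy miR168b-5p 2.78-fold ± 0.0598 (SD, n = 3) in mat nrpd1+/-, 2.81-fold ± 0.108 (SD, n = 2) in pat nrpd1+/- and 2.73-fold ± 0.0693 (SD, n = 3) in nrpd1-/-. At 24 nt the ratio was 104, 110 and 56.8 in the mat nrpd1+/- libraries, 38.3 and 54.0 in pat nrpd1+/-, and 70.2, 91.5 and 81.7 in nrpd1-/-. In every library it was thus more than 10 times the 21-nt ratio. At 24 nt miR168b-5p had from 6 to 50 reads a library and miR168a-5p from 324 to 2105. The miR162-3p copies were even at 21 nt, with a ratio of 1.0005 ± 0.0137, 0.974 ± 0.00858 and 1.02 ± 0.0194 in mat, pat and nrpd1-/-. How the aligner shared reads of identical copies was not tested, so single-copy values of miR162 and miR168-5p at 21 nt are uncertain.

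**Figure D5:**
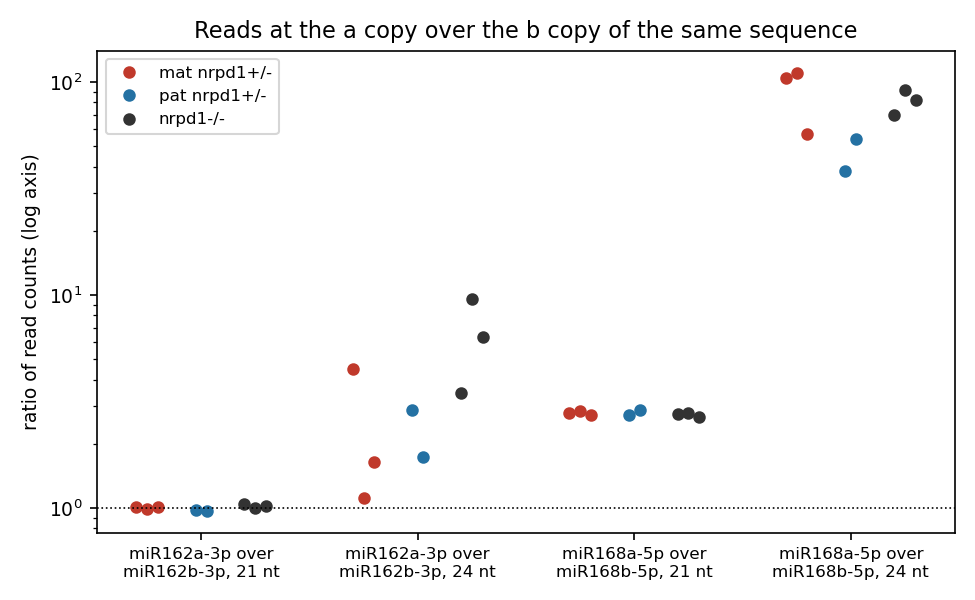
Reads at the a copy over reads at the b copy of miR162-3p and miR168-5p (log axis), at 21 and 24 nt, with a point for each library in mat nrpd1+/- (red), pat nrpd1+/- (blue) and nrpd1-/- (black). miR168 lies between 2.66 and 2.89 at 21 nt and between 38.3 and 110 at 24 nt, and the dotted line marks equal copies.

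That miR168a-5p stood far above wild-type (WT) in the heterozygotes was known when these families were taken up, so the WT level is given as a description. It is what remained of the authors' mean once the mutant libraries were subtracted, has no SD, and comes from libraries of an earlier series. At 24 nt the authors' WT value of miR168a-5p came to 3859 rpm, and mat nrpd1+/-, pat nrpd1+/- and nrpd1-/- stood at 11.5, 9.62 and 16.7 times the value from their own tables. For miR168a-3p (WT 8346 rpm) these ratios were 7.65, 7.27 and 14.3. At 21 nt mat nrpd1+/- stood at 1.62 times WT for miR168a-5p, 8.61 for miR168a-3p, 3.36 for miR162a-3p and 1.38 for miR403-3p. At 21 nt pat nrpd1+/- stood at 1.69, 5.83, 3.41 and 1.56 times WT for these entries. Also above WT at 21 nt, in mat and pat nrpd1+/-, were miR162b-3p (3.37 and 3.52 times), miR168b-5p (1.77 and 1.84) and miR403-5p (2.22 and 4.66). Below WT at 21 nt were miR162a-5p, at 0.613 and 0.464 times WT in mat and pat nrpd1+/-, and miR162b-5p, at 0.480 and 0.431. miR168b-3p was close to WT, at 0.966 and 0.969. At 24 nt miR403-3p was at 0.823 and 0.516 times WT in the heterozygotes. Genotype and the separate sequencing of WT cannot be told apart here.

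The targets of these miRNAs also gave rise to sRNAs, counted over the whole gene and without regard to the miRNA site. At AGO1 21-nt reads made up 85.0% ± 1.23 of its 21- to 24-nt reads in mat nrpd1+/-, 85.2% ± 0.761 in pat nrpd1+/- and 84.6% ± 0.930 in nrpd1-/-, with 438 to 1199 21-nt reads a library. Its 24-nt reads, 12 to 39 a library, came to 922 rpm ± 215, 1039 rpm ± 40.3 and 939 rpm ± 110. These groups overlapped (log2 fold change of nrpd1-/- over mat 0.02, SE 0.391, adjusted p = 0.956, edgeR; 2.28 with TMM factors, with a call). AGO2, with 12 to 56 24-nt reads a library, was at 1323 rpm ± 360, 1259 rpm ± 271 and 871 rpm ± 471 (-0.62 over mat, SE 0.384, adjusted p = 0.115, edgeR; 1.61 with TMM factors, so its direction depends on the scale).

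DCL1 had 9, 12 and 11 24-nt reads in the mat nrpd1+/- libraries, 31 and 16 in pat nrpd1+/- and 1, 6 and 2 in nrpd1-/-, with no overlap between nrpd1-/- and a heterozygote. Its 24-nt level fell by 3.03 on the log2 scale in nrpd1-/- against pat nrpd1+/- (SE 0.624, adjusted p = 1.68e-06, edgeR), less than the median over all entries (-4.24), of which 88.9% were called lower. DCL1 passed the count filter there only through the pat nrpd1+/- libraries, where it was higher. Against mat nrpd1+/- it had too few reads to be tested. Its 21-nt reads, 49 to 128 a library, made up 66.5% ± 3.61, 68.6% ± 2.73 and 76.7% ± 1.59 of its 21- to 24-nt reads in mat, pat and nrpd1-/-. In mat against pat nrpd1+/- the 21-nt levels of DCL1, AGO1 and AGO2 were not called (log2 fold changes -0.58, -0.38 and -0.09).

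A list of 28 silencing genes was read in the same way. At 21 nt 9 had enough reads in mat against pat nrpd1+/-, and 1 was called (13.4% over all entries), NRPD1 itself, with higher sRNA reads in mat (log2 fold change 1.13, SE 0.360, adjusted p = 0.0434, edgeR). At 24 nt 14 were tested and again NRPD1 alone was called (10.8% over all entries; log2 fold change 1.61, SE 0.390, adjusted p = 0.000841, edgeR). In nrpd1-/- against mat nrpd1+/-, 7 of 9 were called lower and 0 higher, where 88.1% of all entries were called lower, with a median log2 fold change of -3.25, against -5.13 over all entries. Those were DCL2 and DCL4, which make 22- and 21-nt siRNAs, DCL3, AGO10, RDR2 (the RNA polymerase that works with Pol IV), NRPD1 and NRPE1 (the largest subunit of Pol V). Against pat nrpd1+/-, 13 of 16 were called lower and 0 higher, where 88.9% of all entries were called lower, with a median of -3.40 against -4.24 over all entries. The list thus showed no larger loss than the table as a whole. Genes with few reads in nrpd1-/- passed the count filter only through the heterozygotes, such as HEN1 with 0 to 1 reads against 16 to 28 in pat. Counts called lower thus lean on genes that were high in a heterozygote, and the same filter applied to all entries. The genes called lower against pat nrpd1+/- were the same 7 genes with DCL1, AGO6, AGO7, HEN1, CLSY1 and DRM2. With TMM factors these counts were 4 lower and 2 higher against mat, and 2 lower and 2 higher against pat nrpd1+/-. AGO1 and AGO2 were among those tested in both comparisons and not called lower in either.

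Outside the 3 families, the 24-nt entries whose levels ran most like those of miR168 over the 8 libraries were those of MIR472, MIR171c and MIR865 (Pearson's r of log2 rpm 0.935, 0.923 and 0.910, of 119 entries compared). For miR403 they were MIR858a, MIR4228 and MIR166a (0.931, 0.926 and 0.907), and for miR162 MIR775, MIR846 and MIR167a (0.771, 0.742 and 0.689). These correlations run across 3 genotypes and share the total of each library.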

How the data were processed

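The authors ran Cutadapt, collapsed duplicate reads using the random bases of the adapters, aligned reads to TAIR10 joined to a Ler pseudo-genome with Bowtie 1.2.2, keeping best alignments, binned them by length and counted overlaps with Bedtools. The deposited gene tables hold raw counts for each library and counts divided by DESeq2 size factors, used here as a signal for the WT value alone. The minimum overlap and the sharing of reads between identical copies are not given in the sources used here. The authors' fold changes and p-values in these tables against WT were not used, nor were 159 per-library columns. Of counted reads, 53.2% to 88.5% fell in no gene and were left out. The 21-nt nrpd1-/- table holds 2099 entries of its own and then repeats another table, so only those served, for ratios within a library.

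Raw counts of all entries were fitted 2 genotypes at a time in R 4.3.3 with edgeR 4.0.16 (quasi-likelihood test, filterByExpr), with total mature miRNA reads as library size and Benjamini-Hochberg adjustment over all entries tested. SEs come from the quasi-likelihood F. Alternatives were other scalings (1 added after the data were seen), DESeq2 1.42.0, no filter, miRNA entries alone, summed copies, a replicate block and leaving out each library. The fit was tested on simulated data. Named were all members, their targets, listed silencing genes that were called and the 3 entries most like each family. Of 30 listed symbols 28 matched RefSeq to a single gene. The members and lists were chosen with earlier results of these data known. P-values measure the spread between libraries.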

Additional observations from a re-analysis of the deposited data

How the results depend on the processing

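Against the main counts of members called (0, 0, 1 and 3 in the order 21-nt mat against pat, 24-nt mat against pat, nrpd1-/- against mat and nrpd1-/- against pat), the 21-nt count was 0 under each alternative run. The 24-nt mat against pat count was 1 with TMM factors over mature miRNA entries and 0 to 1 with a library left out. The count of nrpd1-/- against mat was 7 with TMM or DESeq2 size factors over all entries, 2 with TMM over mature entries, without the 3 families in the total or with no filter, and 2 to 3 with a library left out. That of nrpd1-/- against pat was 7 with TMM or DESeq2 size factors over all entries, 1 without the families in the total (miR162a-5p) or with mature entries alone in the fit (miR168a-3p), 0 in DESeq2's own test, and 0 to 2 with a library left out. The cause was not tested.

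Deviations of same-numbered libraries correlated at 0.250 and -0.298 at 21 nt and from -0.364 to 0.191 at 24 nt. The deviations of the pat nrpd1+/- libraries mirror each other exactly, so correlations with them cannot show whether replicate numbers paired the samples. This covers all values at 21 nt. Between mat nrpd1+/- and nrpd1-/- at 24 nt, same-numbered libraries correlated from -0.0956 to 0.143. Those of different numbers correlated from -0.198 to 0.101, an overlapping range. With a replicate block the counts were 0, 0, 1 and 1, and fits with pat nrpd1+/- then dropped replicate 1 of the other genotype.

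Log2 fold changes near 0 changed sign. At 21 nt, with TMM or DESeq2 size factors over all entries, miR162a-3p came to 0.083 and 0.12, miR162b-3p to 0.044 and 0.078, miR168a-5p to 0.042 and 0.098, and miR168b-5p to 0.049 and 0.11. The replicate block gave 0.095, -0.15 and 0.11 for miR168a-5p, miR168b-3p and miR168b-5p, and miR168b-3p was at -0.013 with TMM over mature entries and -0.0047 with these alone in the fit. With a library left out at 21 nt, miR162a-3p ran from -0.21 to 0.16, miR162b-3p from -0.26 to 0.13, miR162b-5p from -0.36 to 0.91, miR168a-5p from -0.45 to 0.45, miR168b-3p from -0.38 to 0.48 and miR168b-5p from -0.47 to 0.51. In 24-nt mat against pat, TMM over mature entries gave -0.038, -0.15 and -0.28 for miR162b-3p, miR168a-5p and miR168a-3p. With a library left out, miR162a-3p ran from -0.33 to 0.046, miR162b-3p from -0.32 to 0.78, miR168a-5p from -0.16 to 0.85, miR168a-3p from -0.056 to 0.24 and miR168b-5p from -1.16 to 0.33. In nrpd1-/- against mat, miR162a-3p was -0.25 with copies summed, -0.38 without the 76 entries in the total and -0.073 to 0.33 with a library left out, and miR168b-5p was -0.047 without the 76 entries. In nrpd1-/- against pat, miR162a-3p was -0.28 in both of these and -0.20 to 0.22 with a library left out. There miR168b-3p was 1.04 and 1.07 and miR168b-5p 2.03 and 2.11 with TMM and DESeq2 size factors, and miR168b-5p ran from -0.66 to 0.83 with a library left out. Of the other fold changes under alternatives, 318 kept direction and call, 24 gained a call and 19 lost one.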
